A study of Mus musculus with 6 samples.

Results

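The genes described here are the Eph receptors, the ephrins, the Slits, the Robo receptors, the netrins and the netrin receptors of the mouse, families of cell-surface and secreted guidance proteins. They were chosen by gene symbol. Of the 37991 gene identifiers in the deposited count tables, 40 carried such a symbol: 9 Eph A and 5 Eph B receptors, 5 ephrin A and 3 ephrin B ligands, 3 Slits, 4 Robo receptors, 5 netrins, and 6 netrin receptors (Dcc, Neo1 and Unc5a to Unc5d). RNA was measured in YFP-sorted mesenchyme of the Müllerian duct, which gives rise to oviduct and uterus in females and is lost in males, at embryonic day 14.5. There were 3 male and 3 female libraries, each from the pooled cells of 2 to 7 embryos. Every embryo, male or female, was Amhr2Cre/+ and R26R YFP/+ on a C57BL/6J x 129/SvEv mixed background, so that the Cre allele at the AMH receptor locus was present in both sexes and no group lacked it. YFP in this cross marks cells with present or past Amhr2-Cre activity, which is also known in somatic cells of the gonads.

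Eph receptors are receptor tyrosine kinases whose ephrin ligands are themselves bound to a membrane, by a lipid anchor in ephrin A and a transmembrane segment in ephrin B. Contact between cells therefore signals in both directions and commonly sorts or repels cells. Slits are secreted proteins that repel growing axons and migrating cells through Robo receptors. Netrin 1 is a secreted laminin-related protein that attracts through DCC or neogenin and repels through UNC5 receptors. DCC and the UNC5 proteins are also known as dependence receptors, which can promote cell death where their ligand is lacking. The netrin G proteins are membrane-anchored and bind other partners.

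The libraries held 22511872 to 24749859 counts in genes, of which the 40 genes took 0.268% to 0.329%. CPM, the common depth-scaled count, was computed here with TMM library sizes, and a level per kilobase is CPM divided by the length of the gene's longest reference transcript. Values given for the libraries of a sex follow replicates 1, 2 and 3. The labels went with the sex-linked genes: Xist stood at 277.5 CPM or more in each female library and at most 2.22 in a male one, and Ddx3y at 17.1 CPM or more in each male library and at most 0.0492 in a female one. Markers of Müllerian mesenchyme were present in all libraries, with a summed level of 2846 to 4204 CPM in the females and 4091 to 4179 in the males. Col1a1 led that sum, and 5 of the 10 markers (Osr2, Emx2, Hoxa10, Hoxa11 and Twist1) were lower in each male library at an unadjusted p under 0.05. This stands beside 4.51% of all genes lower at that p. None of the 10 passed after adjustment (edgeR), and their median log2 fold change was −0.81. Among lists of other cell types, the summed CPM did not overlap between the sexes for endothelium (73.6 to 107.1 in female, 171.9 to 335.8 in male), neurons and Schwann cells (15.98 to 31.5 and 69.2 to 77.8), Sertoli cells (17.9 to 37.1 and 79.97 to 141.8), pregranulosa cells (114.9 to 207.5 and 274.0 to 547.6), kidney progenitors (131.8 to 209.2 and 58.9 to 101.2) and blood cells (6.93 to 8.27 and 9.02 to 11.4). Each of these 6 lists had an exact two-sided permutation p of 0.1, the smallest that 3 against 3 libraries allow, and 0.150 after adjustment over the 9 lists. No list could therefore pass 0.05 by this test. Gene by gene, all 8 Sertoli markers had a positive log2 fold change, with a median of 2.43. Of these, 3 were higher in male at an adjusted p under 0.05 (edgeR), beside 0.841% of all genes. The epithelium and mesothelium sums overlapped. Single genes carried some of these sums. Without Wnt4 the pregranulosa sum was lower in male, at 27.8 to 56.2 CPM in the females and 11.6 to 17.7 in the males, and 5 of its 6 markers had a lower mean in male. Without Stmn2 the neuronal sums overlapped (4.28 to 21.9 and 7.61 to 26.9 CPM), as did the blood sums without Cd68 (2.87 to 4.16 and 2.33 to 6.28 CPM). The Sertoli sum without Sox9 and the kidney sum without Sall1 stayed apart (9.99 to 30.3 and 36.1 to 82.5 CPM, 7.79 to 15.4 and 4.202 to 5.20 CPM). The part of these markers in the results below was not tested. In sorted bulk RNA, fewer cells of a type and less RNA per cell cannot be told apart.

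Of the 40 genes 36 passed the filter on low counts. In the male against female test Unc5b was higher and Slit1 lower in male. That is 1 of 36 in each direction (edgeR quasi-likelihood test, adjusted p threshold 0.05), beside 0.841% higher and 0.387% lower, 1.23% together, among all 15227 genes tested. At an unadjusted p under 0.05 there were 9 of 36, 5 higher and 4 lower, beside 9.18% of all genes (4.68% higher, 4.51% lower). In 8 of 36, 5 higher and 3 lower, the values of the sexes were fully separated, beside 13.7% of all genes (6.47% higher, 7.27% lower). The median log2 fold change was −0.05 for the 36 and −0.01 for all genes, and the median absolute value 0.50 and 0.31. In direction the genes were split, with 17 positive and 19 negative values.

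**Figure D1:**
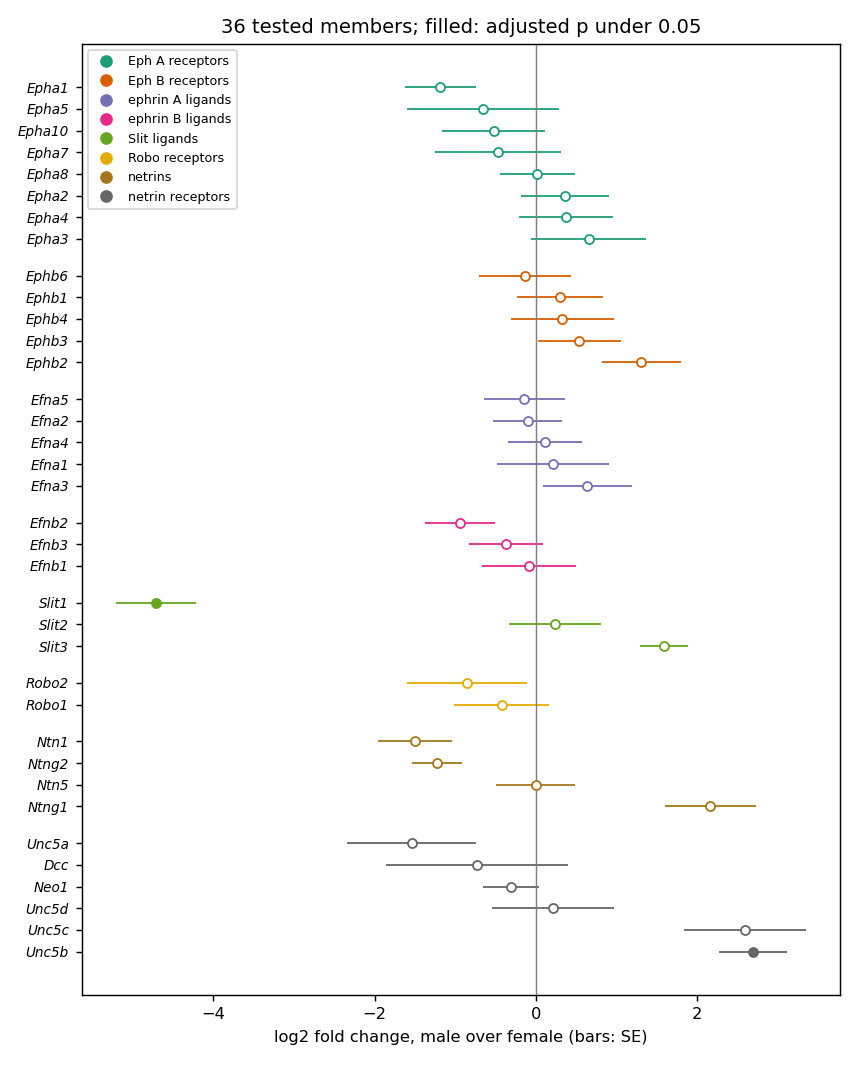
Log2 fold change, male over female, of the 36 tested genes by family, with standard errors as bars and filled points for an adjusted p under 0.05. Slit1 lies at −4.71 and Unc5b at 2.69, and most of the Eph and ephrin genes have bars that reach or cross 0.

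Among the netrin receptors Unc5b, which encodes a repulsive receptor for netrin 1, rose in male mesenchyme. Its level was 75.1, 125.3 and 98.3 CPM in the females and 447.8, 867.1 and 613.1 CPM in the males. The lowest male library stood well above the highest female one. The means were 99.6 ± 25.1 and 642.7 ± 211.2 CPM (SD, n = 3 each), 6.45 times higher in male, and the log2 fold change was 2.69 (SE 0.42, edgeR adjusted p = 0.0383). The direction was kept whichever library was left out, but the adjusted p exceeded 0.05 without female replicate 1, 2 or 3 (edgeR adjusted p = 0.136, 0.0987 and 0.327) and without male replicate 2 or 3 (0.135 and 0.234). Without both replicate 1 libraries the gene still passed (edgeR adjusted p = 0.0089), and without both replicate 2 libraries it did not (0.184). Nor did it pass without both replicate 3 libraries, where the log2 fold change was 2.70 (SE 0.78).

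Endothelial cells also express Unc5b, and the endothelial marker sum was higher in male as well. Most of that sum was Kdr, a VEGF receptor gene, at 40.4 to 86.1 CPM in the females and 133.0 to 319.0 in the males. Of the 11 endothelial markers, 6 had a higher and 5 a lower mean in male, and none was at 0 in every library. Without Kdr the sum was 21.1 to 33.1 CPM in the females and 16.9 to 38.9 in the males, so that the sexes overlapped. Of the 11 markers 2, Cldn5 and Sox17, stayed under 1 CPM in every library. Among the 9 tested, 6 had a positive and 3 a negative log2 fold change, with a median of 0.33. None passed the threshold (edgeR). The part of endothelial cells in the Unc5b values was not tested.

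Unc5c, a second UNC5 receptor gene, was also higher in every male library. It stood at 30.3, 6.49 and 16.2 CPM in the females and at 197.9, 53.8 and 67.5 in the males, 6.01 times higher on average. Its spread within a sex was much wider than that of Unc5b, with replicate 1 highest in both sexes. The log2 value of 2.59 (SE 0.76) missed the threshold (edgeR adjusted p = 0.242). It passed with an offset for transcript GC content and length (2.92, SE 0.18, adjusted p = 0.00068) and without both replicate 1 libraries (2.40, adjusted p = 0.0435). In the stretch where Gm15688 overlaps Unc5c on the opposite strand in the reference, reads of both genes cannot be told apart. Whether such reads were counted or set aside as ambiguous was not examined.

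Neo1, which encodes neogenin, was the most abundant of these receptors per kilobase in the females. It stood at 286.7, 208.0 and 308.3 CPM in the females and 279.7, 178.6 and 189.4 in the males, with overlapping groups and a log2 fold change of −0.31 (SE 0.35) that did not pass. The remaining receptors were low. Dcc had means of 5.29 ± 4.398 CPM in the females and 3.18 ± 3.86 in the males, Unc5a 6.61 ± 3.70 and 2.27 ± 1.57 CPM, and Unc5d at most 4.32 CPM in any library. None of these passed in the reported test, and their groups overlapped.

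Per kilobase, the 6 receptor genes summed to 57.4 ± 4.85 in female and 150.9 ± 24.0 CPM per kilobase in male libraries. Neo1 made up 62.8% ± 8.33 of that level in female libraries and 19.999% ± 7.26 in male libraries. Unc5b made up 29.9% ± 9.29 in female and 71.5% ± 13.8 in male libraries. The ratios between genes given here and below were chosen after their values were seen and carry no test. Within each library the ratio of Unc5b to Neo1 per kilobase was 0.330, 0.757 and 0.401 in the females and 2.01, 6.11 and 4.07 in the males. By this measure the level of Neo1 was the higher in each female library and that of Unc5b in each male library. These shares and ratios, and those below, rest on the longest transcript of each gene. The sums change with another choice of length (given under the processing alternatives). Whether the order of Neo1 and Unc5b in each library holds with another length was not examined.

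**Figure D2:**
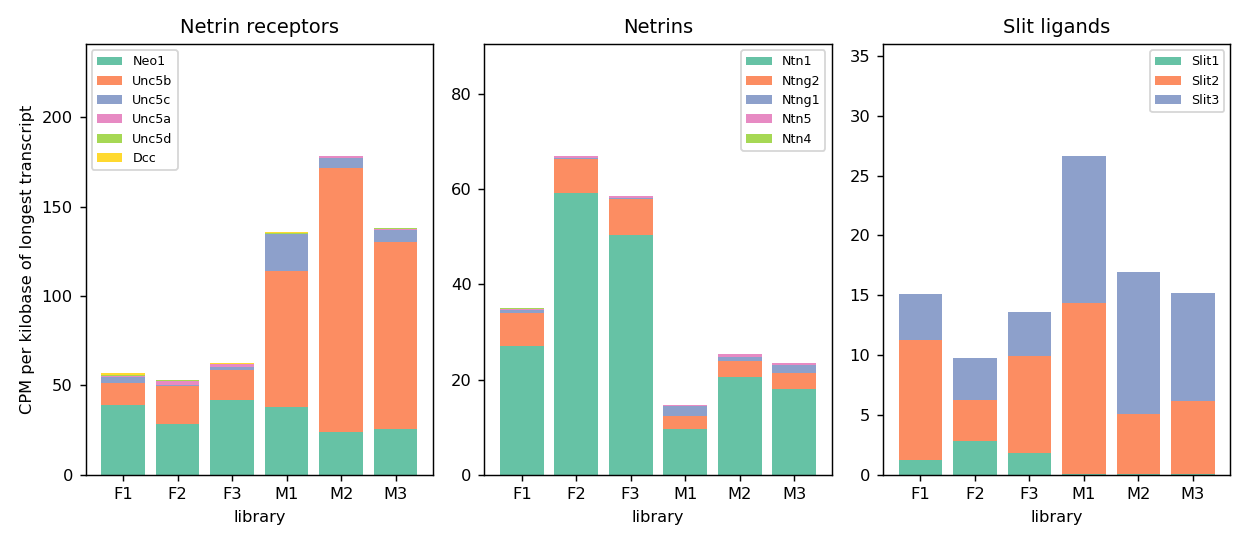
Stacked level per kilobase (CPM per kilobase of longest transcript, linear axis) of the netrin receptors, the netrins and the Slits in female (F1 to F3) and male (M1 to M3) libraries. Unc5b fills most of the receptor bar in the male libraries, the netrin bars are shorter in male, and Slit1 is hardly visible in male.

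The sequences before the start sites of Unc5b, Unc5c and Slit3 are shown because these were the 3 netrin receptor and Slit genes that were higher in each male library. They are the 250 bases upstream of the annotated RefSeq start (build GRCm38.p6, not the mm9 build of the counts), on the gene's strand. Unc5b lies at chr10:60831582-60831831 on the minus strand, Unc5c at chr3:141465314-141465563 on the plus strand and Slit3 at chr11:35121206-35121455 on the plus strand. Capitals mark matches on either strand to GGCGCC, a motif bound by BMP-SMAD complexes, to GGGCGG, the GC box of SP factors (the family that osterix belongs to), or to TAATTA, a homeodomain core. The first 2 can overlap each other.
Unc5b: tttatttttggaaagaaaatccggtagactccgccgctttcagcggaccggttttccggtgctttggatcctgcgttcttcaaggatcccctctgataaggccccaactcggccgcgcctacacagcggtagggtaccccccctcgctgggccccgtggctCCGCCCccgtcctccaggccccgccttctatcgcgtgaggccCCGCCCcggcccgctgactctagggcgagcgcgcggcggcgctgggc
Unc5c: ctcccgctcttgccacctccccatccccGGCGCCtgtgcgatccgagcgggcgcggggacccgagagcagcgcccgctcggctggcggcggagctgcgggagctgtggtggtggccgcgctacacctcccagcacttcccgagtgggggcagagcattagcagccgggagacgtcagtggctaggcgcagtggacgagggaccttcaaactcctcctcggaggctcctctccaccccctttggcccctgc
Slit3: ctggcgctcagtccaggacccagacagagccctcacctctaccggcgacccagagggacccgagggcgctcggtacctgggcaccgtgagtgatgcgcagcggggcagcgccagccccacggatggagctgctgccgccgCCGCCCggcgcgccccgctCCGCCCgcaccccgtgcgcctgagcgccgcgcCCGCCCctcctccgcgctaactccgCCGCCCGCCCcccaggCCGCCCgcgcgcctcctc
Unc5b held 2 GC boxes and Slit3 held 6, counting overlapping ones, while Unc5c held none and 1 GGCGCC. None of the 3 windows held TAATTA. Among all 32851 windows of this length in the table, 9.59% held GGCGCC, 32.7% held GGGCGG and 4.84% held TAATTA. Of the 40 windows of 35 members, 11, 27 and 3 did. A match describes these letters only, and no binding was measured.

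Transcripts of netrin 1, the main ligand of these receptors, were lower in every male library. Ntn1 stood at 159.2, 348.3 and 295.8 CPM in the females and at 56.8, 121.1 and 106.3 in the males. The groups did not overlap, with means of 267.8 ± 97.6 and 94.7 ± 33.7 CPM, 2.83 times higher in female. The log2 value of −1.499 (SE 0.46) missed the threshold in the reported test (edgeR adjusted p = 0.274) and passed with the GC content and length offset (−1.57, SE 0.26, adjusted p = 0.0157).

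The 2 netrin G genes, which encode lipid-anchored relatives, differed in opposite directions, and neither passed. Ntng1 was at 3.05, 1.18 and 1.64 CPM in the females and 11.9, 4.3995 and 10.1 in the males, and the log2 fold change was 2.16 (SE 0.56, edgeR adjusted p = 0.176). Ntng2 was at 13.7, 13.9 and 14.8 CPM in the females and 5.05, 6.62 and 6.40 in the males, with −1.23 (SE 0.31, edgeR adjusted p = 0.165). Both had groups that did not overlap, and the female values of Ntng2 lay close together. Ntng1 passed with the GC content and length offset (adjusted p = 0.0075) and by DESeq2 (0.0060), Ntng2 only by DESeq2 of these (0.0151). In the reference Ntng2 shares exon sequence with 6530402F18Rik. Ntn5 stayed at or below 0.939 CPM in every library.

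Summed per kilobase, the netrin genes stood at 53.6 ± 16.6 in female and 21.2 ± 5.73 CPM per kilobase in male libraries, and Ntn1 was the largest share in each library. Set against its ligand in the same library, Unc5b per kilobase was 0.472, 0.360 and 0.332 times the level of Ntn1 in female replicates 1 to 3. In male replicates 1 to 3 it was 7.89, 7.17 and 5.77 times that level. By this measure the Ntn1 level exceeded that of Unc5b in each female library and the reverse held in each male library.

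**Figure D3:**
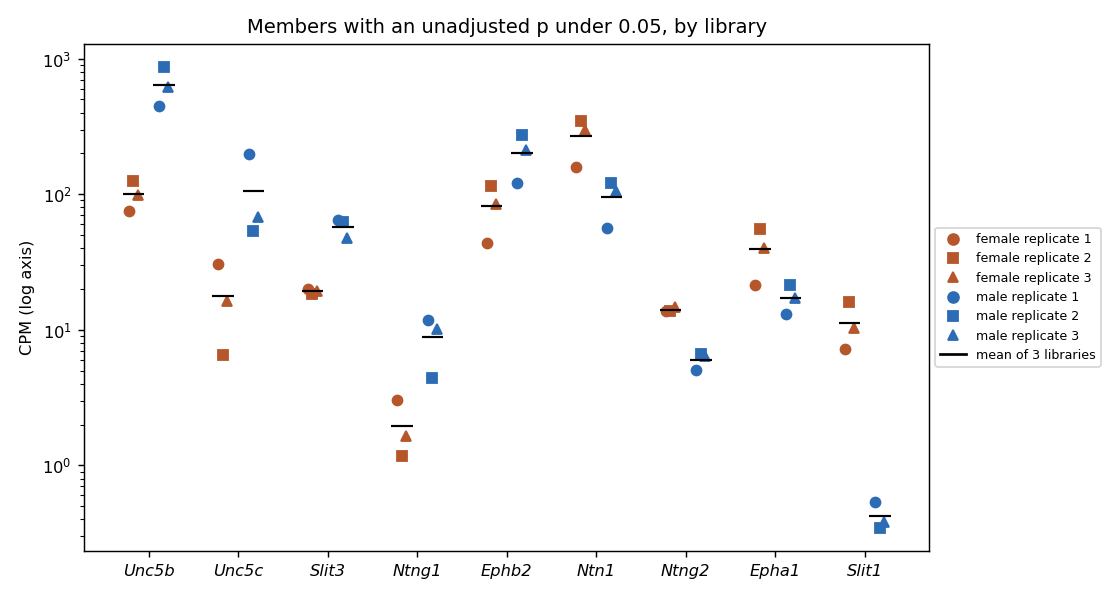
CPM on a log axis of the 9 genes with an unadjusted p under 0.05, in each female (orange) and male (blue) library, with marker shapes for replicates 1 to 3 and bars for the means. The sexes do not overlap in 8 of them, while the highest male value of Epha1 (21.5 CPM) is above the lowest female value (21.3 CPM).

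The 3 Slit genes, which encode the ligands of the Robo receptors, did not move together. Slit1 fell in male mesenchyme from 7.20, 16.0 and 10.2 CPM in the females to 0.535, 0.346 and 0.379 CPM in the males. It was low in each male library, with 30 counts over the 3, against 778 in female. The mean level was 26.6 times higher in female, and the log2 fold change was −4.71 (SE 0.50, edgeR adjusted p = 0.0167). Its adjusted p rose past 0.05 without female replicate 2 or 3 (edgeR adjusted p = 0.0570 and 0.181) and without male replicate 2 or 3 (0.0780 and 0.140). The same held without both replicate 2 libraries (0.130) and without both replicate 3 libraries. The log2 fold change stayed between −5.16 and −4.26 over 17 alternatives.

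Slit3 was higher in each male library, and its female values lay close together. It stood at 19.99, 18.4 and 19.4 CPM in female and at 64.2, 61.9 and 47.2 CPM in male libraries, with means of 19.2 ± 0.805 and 57.8 ± 9.21 CPM. The log2 value of 1.59 (SE 0.30) narrowly missed the threshold (edgeR adjusted p = 0.0656) and passed with the GC content and length offset (1.52, adjusted p = 0.0332) and by DESeq2 (adjusted p = 7.77e-05). Slit2 overlapped between the sexes, at 99.7, 34.3 and 80.9 CPM in the females and 142.4, 50.2 and 60.4 in the males. Its log2 fold change was 0.23 (SE 0.57), and the sign changed with some libraries left out.

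Per kilobase, Slit1 made up 16.8% ± 10.7 of the Slit level in female libraries and 0.385% ± 0.0484 in male libraries, and Slit3 29.5% ± 5.67 and 58.5% ± 11.97. The Slit sum was 12.8 ± 2.75 in female and 19.6 ± 6.19 CPM per kilobase in male libraries. The highest share thus lay with Slit2 in the mean of the female libraries and with Slit3 in the mean of the male ones.

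Of the Slit receptors, Robo1 and Robo2 carried nearly the whole Robo level, and neither passed in the reported test. Robo1 was at 251.2, 87.4 and 199.7 CPM in the females and 226.7, 66.6 and 106.9 in the males, and the log2 fold change was −0.43 (SE 0.59). Robo2 was at 346.6, 82.0 and 189.1 CPM in the females and 216.0, 44.0 and 81.7 in the males, with −0.85 (SE 0.74). Within each sex the libraries of both genes spanned more than the difference between the sexes, with replicate 1 highest and replicate 2 lowest. Both log2 values were negative in all 17 alternatives. With replicate number as a further term (replicate block), both genes passed (edgeR adjusted p = 0.0249 for Robo1 and 1.36e-06 for Robo2). Passing was common in that setting, with 1997 genes called higher and 2167 lower of all 15227. Efna3, Efnb2, Ephb2, Ephb3 and Unc5a, among other members, passed with it too. The male and female libraries of replicate number 3 did not share deviations from their sex means (correlation −0.07 over genes). Robo3 and Robo4 did not pass the filter. Robo4, which is largely an endothelial gene, was at most 0.939 CPM.

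Among the Eph A receptors and their ligands no gene passed in either direction in the reported test, and 1 of 13 tested had an unadjusted p under 0.05. Epha2 had the highest level per kilobase in both sexes, at 13.9 ± 6.41 in female and 17.8 ± 10.1 CPM per kilobase in male libraries, and the log2 fold change was 0.36 (SE 0.54). Epha1, which is also an epithelial receptor in other organs, was at 21.3, 55.8 and 40.4 CPM in the females and 13.04, 21.5 and 17.1 in the males, so that the groups overlapped by 1 library. Its log2 fold change was −1.18 (SE 0.44, edgeR adjusted p = 0.449). It passed with the GC content and length offset (−1.26, SE 0.22, adjusted p = 0.0177). Of 9 epithelial markers 8 had a lower mean in male, among them Epcam (log2 fold change −2.41, edgeR adjusted p = 0.0381). Their sum overlapped, at 203.8 to 722.6 CPM in the females and 149.0 to 495.8 in the males, and their part in the Epha1 values was not tested. Reads from the stretch where Zyx overlaps Epha1 on the opposite strand in the reference cannot be told apart, and may have been set aside as ambiguous. Ephb4, Efna4 and Unc5a, among other members, have overlaps of this kind too. The other 6 tested Eph A genes had log2 fold changes from −0.66 to 0.65.

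The ephrin A genes had a median absolute log2 fold change of 0.15, the smallest of the 8 families. Efna4 was the highest per kilobase, at 27.4 ± 10.03 in female and 29.6 ± 11.8 CPM per kilobase in male libraries, and its log2 fold change was 0.11 (SE 0.46), with a sign that turned in 5 of the 17 alternatives. All 5 ephrin A genes lay between −0.15 and 0.64, with overlapping groups and no unadjusted p under 0.05. By DESeq2 none passed either.

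The Eph B receptors were among the most abundant members. Ephb4, the receptor that pairs with ephrin B2 in blood vessel development, stood at 162.4, 521.9 and 342.0 CPM in the females and 172.8, 702.9 and 411.2 in the males. It made up 65.1% ± 3.24 of the Eph B level per kilobase in female and 60.8% ± 4.82 in male libraries, and its log2 fold change was 0.33 (SE 0.64). Ephb2, an Eph B receptor known from cell sorting and axon pathfinding, stood at 43.9, 115.5 and 84.3 CPM in the females and 120.9, 271.5 and 210.4 in the males. The groups did not overlap, and the log2 value of 1.31 (SE 0.49) did not pass (edgeR adjusted p = 0.450), nor did it with the GC content and length offset (adjusted p = 0.216) or by DESeq2 (0.176). With the replicate block, under which many more genes were called, Ephb2 passed (edgeR adjusted p = 1.05e-12). Its share of the Eph B level was 6.61%, 5.90% and 6.57% in the females and 15.5%, 10.01% and 12.6% in the males, a narrower spread than that of its CPM. Ephb1, Ephb3 and Ephb6 had log2 fold changes from −0.14 to 0.53.

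The ephrin B ligands all had negative values, and none passed in the reported test. Efnb1, on the X chromosome, was at 130.9, 372.4 and 260.7 CPM in the females and 104.8, 364.2 and 251.0 in the males, and the log2 fold change was −0.09 (SE 0.58). Efnb2 was at 407.9, 246.4 and 437.4 CPM in the females and 275.6, 125.2 and 168.0 in the males, with −0.94 (SE 0.43, edgeR adjusted p = 0.630). Efnb2 was named after its values were seen. Its groups overlapped through female replicate 2 and male replicate 1. Efnb3 had −0.37 (SE 0.46).

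**Figure D4:**
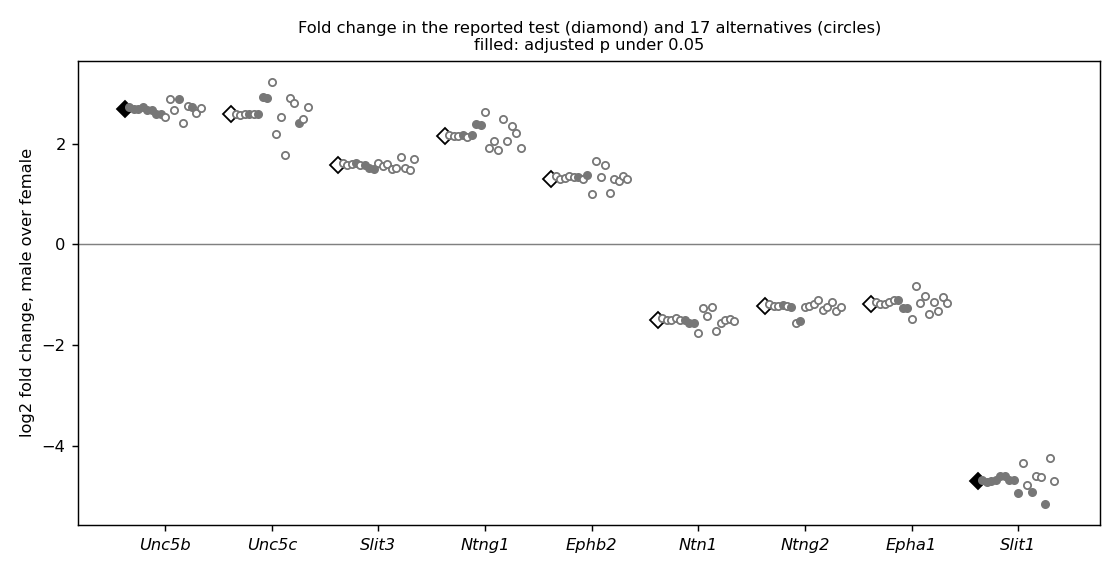
Log2 fold change, male over female, of the 9 genes with an unadjusted p under 0.05 in the reported test (diamonds) and in 17 alternatives (circles), filled where the adjusted p was under 0.05. Each gene stays on 1 side of 0 in all of them, and the fill comes and goes with the setting.

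Much of the difference between replicates 1 and 2 within a sex followed the base composition of the genes. In the 13 tested members with a transcript GC content under 50%, among them Robo1, Robo2, Slit2, Unc5c and Dcc, replicate 1 was higher than replicate 2 in all 13 in each sex, with median log2 ratios of 1.56 in female and 1.77 in male libraries. In the 23 members with 50% or more, among them Ephb4, Efnb1, Ntn1 and Unc5b, replicate 1 was the higher in 2 in female and 3 in male libraries, with medians of −1.25 and −1.17. Over the 36 genes the ratio correlated with GC content at r = −0.86 in both sexes, a description across genes of the same libraries. For replicate 3 over replicate 2 it was −0.78 in female and −0.46 in male libraries. The log2 fold change between the sexes had r = −0.16 with GC content. Of the uniquely placed reads, 17.5%, 3.53% and 8.65% in the females and 18.2%, 5.45% and 5.5% in the males were assigned to no counted feature. Their part in these patterns was not tested. Slit3 (56.8% GC) and Neo1 (49.0% GC) were among the genes with little replicate difference.

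**Figure D5:**
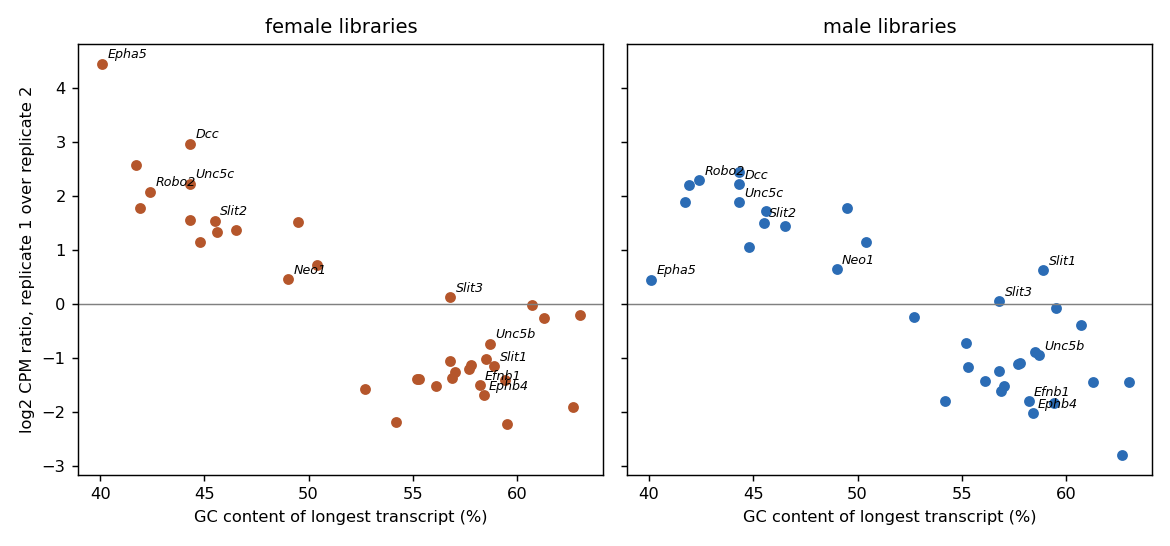
Log2 ratio of CPM in replicate 1 over replicate 2 against the GC content of the longest reference transcript, for the 36 tested genes in female (left) and male (right) libraries. Genes under 50% GC lie above 0 in both panels and most others below it.

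With the offset for GC content and length, 7 of the 36 genes were called, 4 higher (Unc5b, Unc5c, Slit3 and Ntng1) and 3 lower (Slit1, Ntn1 and Epha1) in male. This stands beside 3.22% higher and 3.18% lower, 6.4% together, among the 14674 genes that had a GC value. By DESeq2 the same 4 were higher and Slit1 and Ntng2 lower, beside 2.92% higher and 2.15% lower, 5.06% together, of all genes. Without both replicate 1 libraries, Unc5b and Unc5c were higher and Slit1 lower, beside 1.5% and 0.863% of all genes, 2.37% together.

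Genes that act with these families, such as cytoplasmic adaptors, scaffold proteins and further ligands, were taken as 3 lists of 81 genes, 80 of them tested. Of these 2 were higher and 0 lower in male (edgeR), beside 0.841% and 0.387% of all genes. At an unadjusted p under 0.05 there were 2 higher and 11 lower, beside 4.68% and 4.51% of all genes, and the median log2 fold change was −0.17. By DESeq2 2 were higher and 7 lower, beside 2.92% and 2.15% of all genes. By limma-voom 2 were higher and 1 lower, beside 1.06% and 0.519%, 1.58% together, of all genes. Draxin, a secreted ligand of DCC and a WNT inhibitor, rose from 2.72, 3.59 and 3.20 CPM in female to 19.9, 22.8 and 26.8 CPM in male libraries (log2 fold change 2.87, SE 0.34, edgeR adjusted p = 0.0201). Grip2, a PDZ scaffold protein gene whose family binds ephrin B, rose from 1.47, 1.38 and 2.08 CPM to 9.52, 11.6 and 9.69 CPM (2.64, SE 0.37, edgeR adjusted p = 0.0281). Both sets of male libraries lay far above the female ones. Both calls were lost without any 1 of female replicates 1 to 3 or male replicates 2 and 3, with adjusted p from 0.0712 to 0.220 for Draxin and from 0.0980 to 0.220 for Grip2.

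Lrig1, a membrane regulator of growth factor receptors, was lower in each male library, at 29.4, 65.1 and 54.6 CPM in the females and 5.47, 10.1 and 7.33 in the males. It just missed the threshold (log2 fold change −2.70, SE 0.45, edgeR adjusted p = 0.0516). The calls were 1 of 32 Eph and ephrin partners (Grip2) and 1 of 28 netrin partners (Draxin), both higher in male. At an unadjusted p under 0.05 there were 1 higher and 2 lower among the Eph and ephrin partners, 0 and 2 among the 20 Slit and Robo partners, and 1 and 7 among the netrin partners. In the Slit and Robo list Cap2, an actin regulator, had −1.31 on the log2 scale (SE 0.36, edgeR adjusted p = 0.201) and passed with the GC content and length offset (adjusted p = 0.0157) and by DESeq2 (0.0250). Nell2, a secreted ligand of ROBO3, had −1.25 (SE 0.49, edgeR adjusted p = 0.477).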

How the data were processed

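The authors deposited a table of raw read counts by Ensembl identifier per library. Its 5 summary lines were not used in any test, only for the share of reads assigned to no counted feature. The submitters' processing notes name TopHat, HTSeq, DESeq and mm9. Versions, gene annotation and strand mode were not given in the sources used here. Per the labels' protocols, TruSeq v2 libraries were made from at least 100 ng of RNA and sequenced as paired 76-base reads. The kit does not mark strand. Symbols, transcript lengths and GC content came from GENCODE M21 (GRCm38), which names 32919 of the identifiers. Of 41 symbols that fit the rule there, 40 had a row.

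In R 4.3.3, filterByExpr set the low-count filter, TMM the scaling, and the two-sided quasi-likelihood test of edgeR 4.0.16 (robust, sex as the only term) the p-values, with Benjamini-Hochberg adjustment over 15227 genes and a threshold of 0.05. Standard errors were taken as the size of the log2 value divided by the root of its F statistic. Alternatives used other scaling and filters, DESeq2 1.42.0, limma 3.58.1 (voom), a replicate block, a GC content and length offset (splines, 5 degrees of freedom each) and fewer libraries. The test was also run on simulated counts. These were drawn independently for each library, without the GC pattern or the likeness between replicates found here. They cannot show how the test behaves in these data. P-values measure the spread between these pooled libraries. Genes named in full had an unadjusted p under 0.05, the highest level per kilobase of their family, or, in the partner lists, a call or one of the 2 smallest p. One partner gene that fits this rule is not reported here. The members and lists were chosen with earlier results of these data known.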

Additional observations from a re-analysis of the deposited data

Results flagged for a closer look

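Of the 4 members outside the test, each had more than 3 counts in at least 1 library, the limit a count of 0 allows, which is what singles them out. The highest count in a library was 10 for Epha6, 13 for Ntn4, 5 for Robo3 and 19 for Robo4. These came from male replicate 1, female replicate 1, female replicate 1 and male replicate 2. The male and female libraries overlapped for all 4. With 3 libraries a sex, no test for a library far from its group was made.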

How the results depend on the processing

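Male and female libraries of replicate numbers 1 and 2 shared deviations from their sex means, and those of number 3 did not. Over 15227 genes these deviations correlated at 0.93 for replicate 1, 0.85 for replicate 2 and −0.07 for replicate 3. Female replicate 3 correlated best with male replicate 1 (0.22). With a replicate block 7 members were called higher and 8 lower, 4 and 24 partner genes, and 1997 and 2167 of all genes. With the block and the GC content and length offset together these were 10 and 12, 8 and 22, and 2086 and 2367. With the offset alone there were 4 and 3 members, 9 lower partner genes, and 473 and 466 of all genes, in place of 128 and 59. DESeq2 called 4 and 2 members, 7 lower partner genes, and 444 and 327 of all genes. With no filter, a stricter filter or limma-voom 1 partner gene was lower. Leaving out 1 library, or both of a number, gave 0 to 2 members higher and 0 to 1 lower, 0 to 2 partner genes higher and 0 to 1 lower, and 0 to 225 of all genes higher and 0 to 129 lower (0 to 141 and 0 to 32 with 1 library left out). Where no gene was called, without female replicate 3, male replicate 3, both replicate 2 or both replicate 3 libraries, edgeR had 884, 938, 1103 and 455 genes at an unadjusted p under 0.05, of them 6, 7, 7 and 3 members. The cause was not tested.

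For the 23 genes that fit the naming rule, 1 of them not reported here, 391 values under 17 alternatives were computed. In 305 the direction and the call were kept, in 27 the call was lost, in 46 gained, and in 13 the sign turned. The signs that turned were all uncalled values of 5 genes. For Efna4 the log2 fold change was −0.22 with the offset, −0.21 with the offset and the block, −0.11 without female replicate 1, −0.12 without male replicate 2 and −0.073 without both replicate 3 libraries, and single libraries left out gave up to 0.43. For Efnb1 it was 0.30 without female replicate 2 and 0.27 without male replicate 1, and single libraries gave down to −0.52. Epha2 ranged from −0.18 without male replicate 2 to 0.78. Ephb4 had −0.01 without female replicate 1 and −0.23 without male replicate 2, with 0.77 at the other end. Slit2 had −0.10 without female replicate 2, −0.37 without male replicate 1 and −0.068 without both replicate 1 libraries, with 0.55 at the other end.

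With the median in place of the longest transcript length, summed levels in female and male libraries became 128.5 and 223.2 CPM per kilobase for netrin receptors, 294.8 and 216.6 for ephrin B, 109.8 and 122.2 for Eph A, 231.7 and 305.5 for Eph B, 131.2 and 87.3 for Robo and 53.5 and 100.7 for Slit genes. The order of the sexes turned for Eph A genes. The 48 family sums with a library left out moved by less than 1 SD. The marker sums kept their direction with DESeq2 size factors.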
